A study of Mus musculus with 6 samples.

Results

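The smooth muscle contractile apparatus and its regulators were followed through 6 samples of mouse aorta as a list of 36 genes. Of these, 34 had at least 1 probe set that names no other gene, and the brightest such probe set on average was read for each. They are 34 of the 19752 genes measured in this way, in a table of 25254 probe sets. Rock2 and Itpr1 are not analysed here. Of the samples, 3 were aorta of mice lacking both Apoe and Adora1 (DKO, genotype apoe-/- adora1-/-). The other 3 were aorta of mice lacking Apoe alone (ApoE-KO, genotype apoe-/-). All mice were 20 weeks old, of C57BL/6 strain and without treatment. Adora1 encodes the adenosine A1 receptor, and Apoe the apolipoprotein whose loss makes mice prone to atherosclerosis, so both groups carry that predisposition and no wild-type aorta was among the 6. The series text names the comparison group as mice lacking Adora1, and the sample labels, which all name Apoe, were followed. Adora1 itself is not analysed here, so the labels were not checked against the deleted gene. Each sample was hybridised to 1 whole-transcript array, and values are log2 intensities, on which a difference of 1 is a doubling.

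Smooth muscle cells form the media of the aorta. Calcium entering the cell or leaving its stores binds calmodulin and switches on myosin light chain kinase, which phosphorylates the myosin light chain so that myosin can pull on actin. Myosin phosphatase reverses this step, and filaments are anchored at dense bodies and at membrane adhesions. Many genes of this apparatus are driven by serum response factor (SRF) with its cofactor myocardin, through DNA elements called CArG boxes, and cells that leave the contractile state in a diseased artery lower them together.

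The defining markers of the tissue were present: Acta2, Myh11, Tagln, Cnn1, Smtn, Lmod1 and Myocd read between 10.42 and 14.06 on all 6 arrays, while array medians lay between 8.01 and 8.02. Over all 34 members values ran from 6.02, of Casq2, to 14.06, of Acta2. Because probes of different genes bind with different strength, the levels of different genes are not ranked. In a whole aorta, a change in the number of smooth muscle cells and a change in RNA per cell cannot be told apart. Both replicate 3 arrays held transcripts of lung epithelium, whose 6 markers summed to 13.73 in DKO replicate 3 and 14.40 in ApoE-KO replicate 3 (log2 of summed intensity), against 9.28 to 9.30 in the other DKO arrays and 9.32 to 9.37 in the other ApoE-KO arrays. Results are therefore also given without that pair.

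Of 28 members with a promoter window, 8 held a CArG or CArG-like box (10 of their 35 windows, against 9.98% of all windows). Promoters are shown for 4 of them, from RefSeq (GRCm38.p6). Each is the 250 bases before and 50 bases after a gene start, 5′ to 3′ on the gene's strand. Capitals mark the CArG box (CC, then 6 letters that are A or T, then GG) and CArG-like boxes, in which 1 of the 6 inner letters is G or C; both patterns read alike on the 2 strands. Acta2 and Myl9 are shown as contractile genes, Srf as the gene of the factor itself, and Pdlim3 as the member nearest to the test's threshold. The windows are chr19:34255324-34255623 (minus strand) for Acta2, chr2:156775214-156775513 (plus strand) for Myl9, chr17:46556113-46556412 (minus strand) for Srf and chr8:45885237-45885536 (plus strand) for Pdlim3.
Acta2: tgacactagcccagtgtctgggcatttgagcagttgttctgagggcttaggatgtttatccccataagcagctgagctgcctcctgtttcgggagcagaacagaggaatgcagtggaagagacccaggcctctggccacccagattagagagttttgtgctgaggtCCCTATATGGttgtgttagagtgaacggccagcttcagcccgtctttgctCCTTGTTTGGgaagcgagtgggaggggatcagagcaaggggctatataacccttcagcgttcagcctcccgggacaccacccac
Myl9: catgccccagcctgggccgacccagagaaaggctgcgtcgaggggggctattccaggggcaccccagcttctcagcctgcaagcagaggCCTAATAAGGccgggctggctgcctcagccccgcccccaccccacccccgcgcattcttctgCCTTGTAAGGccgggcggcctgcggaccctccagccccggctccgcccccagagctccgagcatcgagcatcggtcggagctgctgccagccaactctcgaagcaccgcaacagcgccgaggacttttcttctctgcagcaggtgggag
Srf: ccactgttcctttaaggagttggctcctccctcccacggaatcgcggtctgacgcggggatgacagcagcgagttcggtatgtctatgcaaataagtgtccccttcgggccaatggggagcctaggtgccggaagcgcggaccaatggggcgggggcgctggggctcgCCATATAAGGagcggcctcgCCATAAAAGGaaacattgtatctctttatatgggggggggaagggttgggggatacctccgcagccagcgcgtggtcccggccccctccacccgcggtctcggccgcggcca
Pdlim3: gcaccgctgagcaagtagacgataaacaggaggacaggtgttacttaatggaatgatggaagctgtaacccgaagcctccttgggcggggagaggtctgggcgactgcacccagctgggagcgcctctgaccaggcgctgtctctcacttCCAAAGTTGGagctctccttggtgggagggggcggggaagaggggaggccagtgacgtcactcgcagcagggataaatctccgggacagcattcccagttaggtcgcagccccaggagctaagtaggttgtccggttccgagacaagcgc
Acta2 held 2 CArG-like boxes, which start 84 and 34 bases before the gene start. Srf held 2 CArG boxes, 82 and 62 bases before its own. Among the 28 measured members with a window in the RefSeq table, 5 held a CArG box (Myl9, Vcl, Srf, Ldb3 and Fhl1) and 4 a CArG-like box (Acta2, Myl9, Pdlim3 and Cacna1c). Myh11, Tagln, Actg2, Myocd, Nexn and Rock1 had no window there, so their promoters were not searched. Counted by window, 6 of the 35 member windows held a CArG box and 5 a CArG-like box. The Ldb3 windows overlap and hold the same box. A CArG box was present in 1.63% of all 32851 windows, and a CArG-like box in 8.50%. These matches are descriptions of letters and not of binding. In the expression data they did not go with a common size of difference. Among the 5 genes with a CArG box, DKO minus ApoE-KO ran from -0.0027 for Ldb3 to 0.17 for Vcl. Among the 4 with a CArG-like box it ran from 0.0032 for Acta2 to 0.32 for Pdlim3.

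Most members were slightly higher in DKO. The difference of DKO minus ApoE-KO was above 0 in 30 of 34 members, against 49.3% of all probe sets, and its median was 0.097 (log2), which is 1.07-fold, against -0.0024 over all probe sets. In 8 members it exceeded 0.2 (background 7.42%). The 3 pairs of same-numbered arrays had member medians of 0.050, 0.148 and 0.065, an SD of 0.053. No member passed the test: limma over all 25254 probe sets called 0 members at an adjusted p under 0.05, with or without the replicate number as a block, where the background was 0% without and 0.174% with it. At an unadjusted p under 0.05, 2 members were counted without the block (background 5.62%), both higher in DKO (background 2.94%), and 13 with it (background 16.2%), 12 of them higher in DKO (background 10.1%) and 1 lower (background 6.1%). The smallest adjusted p was 0.861 without the block and 0.057 with it. These members share their arrays and are not replicates of the genotype, so their count carries no test.

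The size of the common shift leaned on single arrays. Without DKO replicate 1 the median was 0.035, without ApoE-KO replicate 1 it was 0.165, and without ApoE-KO replicate 2 it was 0.055. With whole pairs removed it held its size, at 0.098 without both replicate 3 arrays and 0.107 without both replicate 1 arrays. All 3 pairs were higher in DKO in 21 members (background 21.2%) and lower in 2, Des and Casq2 (background 19.1%). Of these, Casq2 read below the array median on every array. In 7 members all DKO arrays lay above all ApoE-KO arrays (background 5.55%): Actg2, Myl9, Ppp1r12a, Ppp1r12b, Synpo2, Pdlim3 and Fhl1. The gap between the groups was 0.0003 for Myl9 and Synpo2, and 0.0104 to 0.0696 for the other 5. No member had all DKO arrays below all ApoE-KO arrays (background 6.47%).

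**Figure D1:**
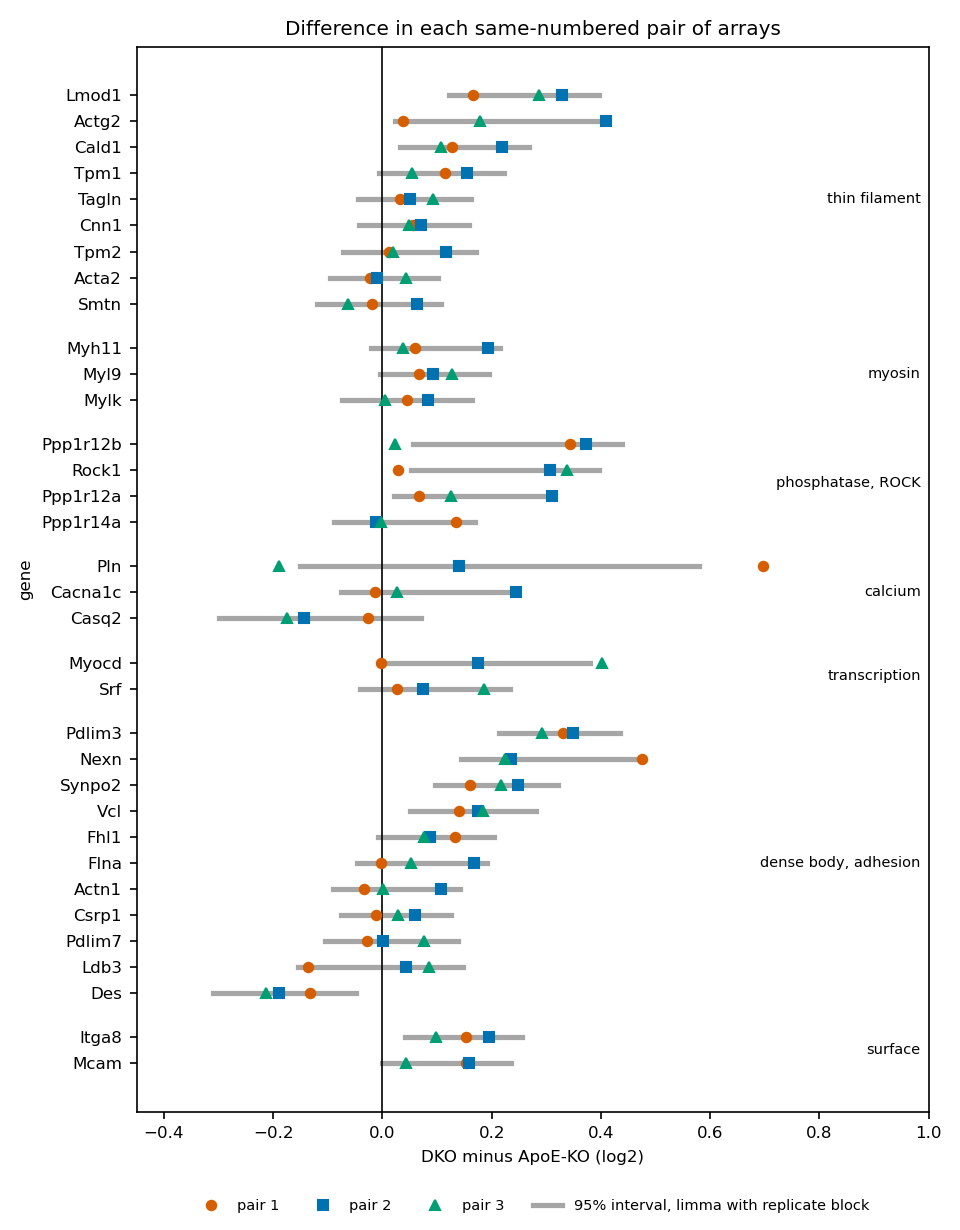
DKO minus ApoE-KO (log2, horizontal axis) for each of the 34 genes, ordered by role and then by mean difference; each symbol is 1 same-numbered pair of arrays and each grey bar the 95% interval of the limma fit with the replicate block. Most symbols lie right of 0, Pdlim3 stands at 0.33, 0.35 and 0.29, and Des lies left of 0 in all 3 pairs.

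Among thin filament genes 8 of 9 were higher in DKO, with a median difference of 0.059, and 7 were so in all 3 pairs. Acta2, the smooth muscle actin that makes up most of the filament, read 14.04, 14.02 and 14.01 in DKO and 14.06, 14.03 and 13.97 in ApoE-KO. The groups overlapped within a range of 0.09, the smallest of any member, and the difference of 0.0032 had a 95% interval of -0.11 to 0.12. Probes near the top of the scale can compress differences, and the highest value in the table was 14.86.

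Tagln, the actin-binding protein transgelin, read 13.40, 13.23 and 13.27 in DKO, against 13.37, 13.18 and 13.17 in ApoE-KO. Cnn1, the calponin that binds actin and slows myosin, read 13.36, 13.17 and 13.21 in DKO, against 13.30, 13.10 and 13.16 in ApoE-KO. In both genes replicate 1 was the highest array of each group, the groups overlapped, and each pair was higher in DKO by between 0.033 and 0.094. Their differences, both 0.06, had intervals that spanned 0 in either fit (limma with the block, adjusted p = 0.552 for Tagln and 0.549 for Cnn1).

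Actg2, the gamma actin typical of visceral smooth muscle, had a larger difference than Acta2. It read 10.96, 11.12 and 11.00 in DKO, against 10.93, 10.71 and 10.82 in ApoE-KO. All DKO arrays were above all ApoE-KO arrays, with ApoE-KO replicate 2 the lowest, and the difference was 0.21 (95% interval -0.0047 to 0.42; limma, adjusted p = 0.862, with the block 0.264). Lmod1, a leiomodin that nucleates actin filaments, read 11.08, 10.75 and 10.79 in DKO, against 10.91, 10.42 and 10.51 in ApoE-KO. Within each pair DKO was higher, by 0.17, 0.33 and 0.29, although ApoE-KO replicate 1 lay above 2 DKO arrays. Its mean difference of 0.26 is 1.20-fold (adjusted p = 0.862 without and 0.122 with the block).

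Cald1, the caldesmon that restrains actin and myosin, read 12.49, 12.30 and 12.16 in DKO and 12.36, 12.08 and 12.05 in ApoE-KO. Its pairs differed by 0.13, 0.22 and 0.11 with overlapping groups (adjusted p = 0.218 with the block). The tropomyosins that lie along actin had smaller differences, 0.11 for Tpm1 and 0.05 for Tpm2. Smtn, the smoothelin of contractile smooth muscle, averaged 12.98 ± 0.07 in DKO and 12.98 ± 0.10 in ApoE-KO (SD, n = 3 each).

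**Figure D2:**
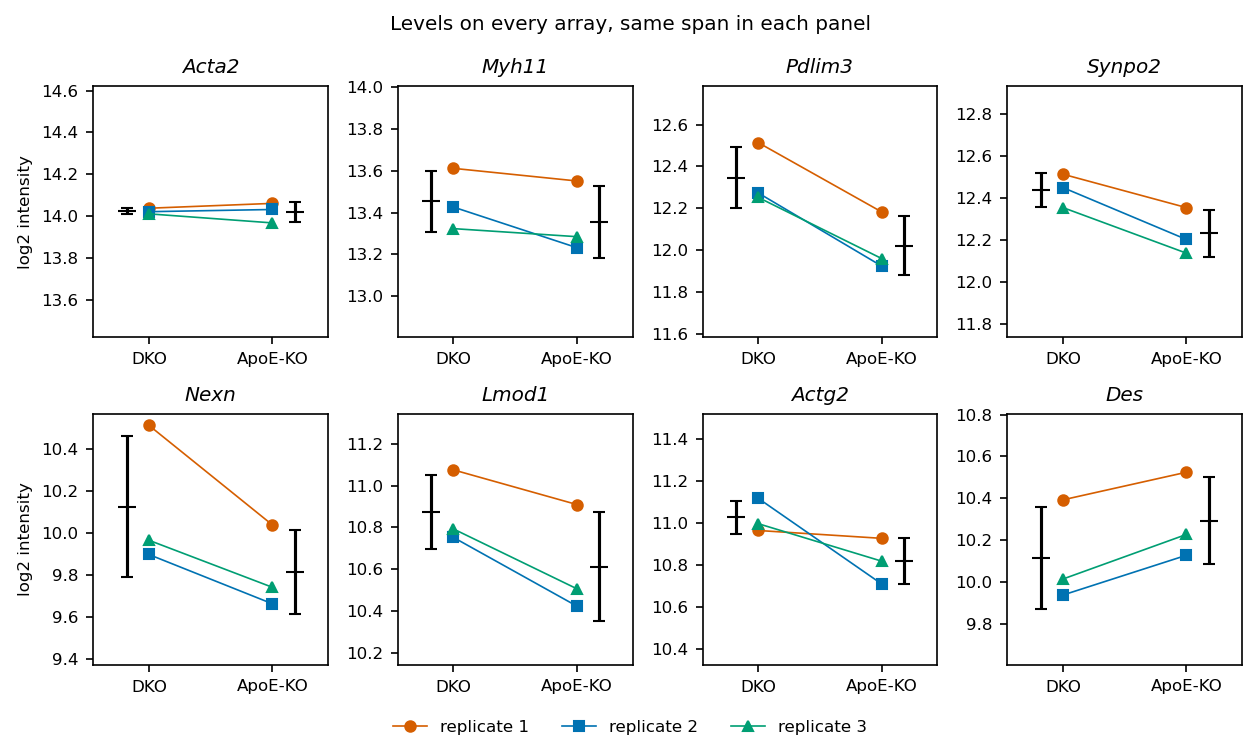
Log2 intensity of 8 genes on every array, DKO left and ApoE-KO right in each panel; lines join same-numbered replicates, and black bars show mean and SD of the 3 arrays. Acta2 is level across all 6 arrays, Pdlim3, Synpo2, Nexn and Lmod1 slope down to ApoE-KO in each pair, and Des slopes up.

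All 3 genes of myosin and its kinase were higher in DKO in every pair, by small amounts. Myh11, the smooth muscle myosin heavy chain, read 13.61, 13.43 and 13.32 in DKO, against 13.55, 13.23 and 13.29 in ApoE-KO. Myl9, the regulatory light chain that the kinase phosphorylates, read 13.75, 13.80 and 13.71 in DKO, against 13.69, 13.70 and 13.58 in ApoE-KO. For Myh11 the spread between replicates (SD 0.15 and 0.17) exceeded the difference of 0.10, while for Myl9 the groups failed to overlap by only 0.0003, at a difference of 0.10 (95% interval -0.04 to 0.24). Mylk, the light chain kinase, averaged 11.51 ± 0.03 in DKO and 11.47 ± 0.05 in ApoE-KO. None of the 3 passed with the block (smallest adjusted p = 0.322).

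The genes of myosin phosphatase and its inhibitors had a median difference of 0.196, and 4 of 4 measured were higher in DKO. Ppp1r12a, the targeting subunit that brings the phosphatase to myosin, read 11.84, 11.88 and 11.85 in DKO, against 11.77, 11.57 and 11.72 in ApoE-KO. The DKO arrays lay within an SD of 0.02 and above every ApoE-KO array, and the difference was 0.17 (95% interval -0.02 to 0.35; adjusted p = 0.862, with the block 0.261). Rock1, a kinase that inactivates that subunit, read 11.92, 11.52 and 11.58 in DKO and 11.89, 11.21 and 11.24 in ApoE-KO. Its groups overlapped, since both replicate 1 arrays stood high, and its pairs differed by 0.03, 0.31 and 0.34. Ppp1r14a, which encodes the phosphatase inhibitor CPI-17, differed by 0.04 between genotypes but had 97.4% of its variation between replicate numbers, with 12.08 in DKO replicate 1 and 11.95 in ApoE-KO replicate 1. The other arrays of both groups read 11.42 to 11.66.

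Ppp1r12b, a second myosin-targeting subunit known from striated muscle, was the one member with several probe sets, 7 in all. The one with the highest mean read 10.77, 10.55 and 10.43 in DKO, against 10.42, 10.18 and 10.41 in ApoE-KO. The groups did not overlap, by a narrow margin, and pair 3 differed by 0.02 where pairs 1 and 2 differed by 0.34 and 0.37. The 7 probe sets disagreed in direction: 3 were higher and 4 lower in DKO, from 0.25 for that one to -0.23 for the one with the lowest mean (adjusted p with the block 0.216 and 0.177). The second probe set by mean differed by -0.13. The direction for this gene therefore depends on which probe set stands for it, and where each lies in the transcript is not given in the files.

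**Figure D3:**
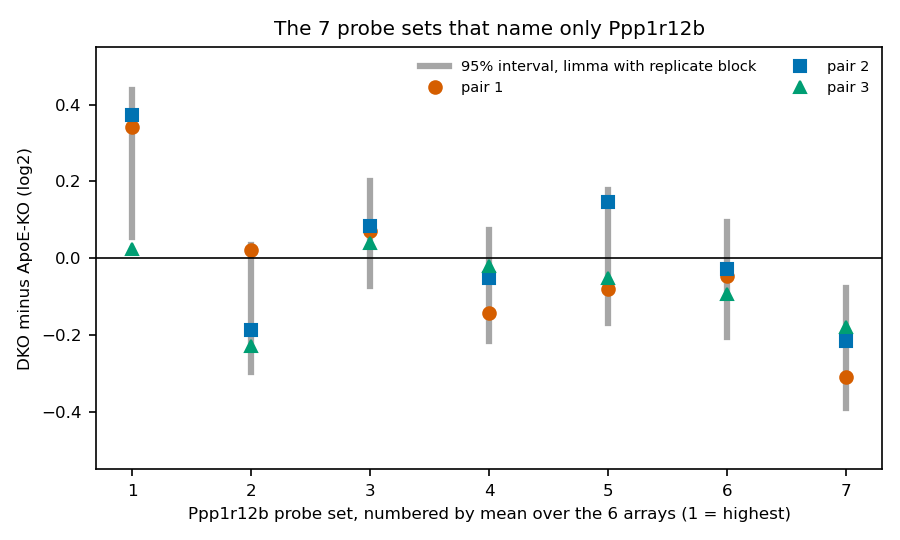
DKO minus ApoE-KO (log2, vertical axis) of the 7 probe sets that name only Ppp1r12b, numbered by mean level; symbols are the 3 pairs of arrays and grey bars the 95% intervals of the limma fit with the block. Probe set 1, at 0.25, and probe set 7, at -0.23, point in opposite directions.

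Ppp1r12b, Lmod1 and Csrp1 are also neighbours of the deleted gene. In the RefSeq order of protein-coding genes on chromosome 1 they lie 12, 21 and 25 genes from Adora1. Csrp1, a LIM protein of the actin cytoskeleton, read 13.80, 13.84 and 13.75 in DKO, against 13.81, 13.78 and 13.73 in ApoE-KO. Its groups overlapped within a range of 0.11 and it differed by 0.03, so the 3 neighbours did not share a size of difference. Whether sequence carried along with the deleted allele touches the probes of these genes was not tested.

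Calcium handling genes went different ways. Cacna1c, the pore of the L-type calcium channel, averaged 10.48 ± 0.05 in DKO and 10.39 ± 0.09 in ApoE-KO, with pairs at -0.01, 0.24 and 0.03. Pln, phospholamban, which restrains the calcium pump of the sarcoplasmic reticulum, read 8.61, 8.87 and 8.70 in DKO, against 7.92, 8.73 and 8.89 in ApoE-KO. Its range of 0.97 was the widest of any member and came from ApoE-KO replicate 1, without which the difference of 0.22 became -0.08.

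Casq2, the calsequestrin that stores calcium in cardiac and smooth muscle, was lower in DKO in all 3 pairs. It averaged 6.11 ± 0.15 in DKO and 6.22 ± 0.19 in ApoE-KO (SD, n = 3 each). Over both groups Casq2 read 6.02 to 6.43, below the array medians of 8.01 to 8.02. It was the member that the percentile filter, one of the alternatives run, removed. Its small difference therefore rests on a weak signal. Pln and Casq2 are also genes of heart muscle, and cardiac transcripts varied between these arrays. Of 12 cardiac markers 11 were lower in DKO, where 49.3% of all probe sets were higher. None of these markers passed in limma with the block (smallest adjusted p = 0.297). The sum of the 12 ran from 11.49 to 12.06 in DKO and from 11.47 to 12.35 in ApoE-KO (log2 of summed intensity). Among them Myl7, an atrial myosin light chain, read 7.67, 7.99 and 8.21 in DKO, against 6.97, 8.38 and 8.60 in ApoE-KO, so ApoE-KO replicate 1 was the lowest array for Myl7 as it was for Pln. That array was the lowest for 5 of the 12 cardiac markers and the highest for 2, and for Casq2 the lowest was DKO replicate 3. The part of cardiac tissue in the Pln and Casq2 values was not tested. Casq1, the skeletal muscle calsequestrin, was one of 12 skeletal muscle markers; of the other 11, 10 were lower in DKO and Mybpc2 was higher by 0.15. It read 10.80, 10.40 and 10.17 in DKO, against 10.39, 9.14 and 9.40 in ApoE-KO, a difference of 0.81 (95% interval 0.05 to 1.58; adjusted p = 0.861, with the block 0.0827).

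Both transcriptional regulators were higher in DKO without passing. Myocd, the SRF cofactor that drives the contractile programme, read 11.87, 11.77 and 11.78 in DKO, against 11.87, 11.60 and 11.38 in ApoE-KO. The DKO arrays were close together (SD 0.05) and the ApoE-KO arrays spread (SD 0.25), so its pairs stood at -0.0020, 0.17 and 0.40 (adjusted p = 0.303 with the block). Srf read 10.98, 10.63 and 10.62 in DKO, against 10.95, 10.56 and 10.43 in ApoE-KO. Both replicate 1 arrays stood well above the rest, 91.7% of its variation lay between replicate numbers, and the difference of 0.10 was -0.02 without DKO replicate 1 and -0.01 without ApoE-KO replicate 3.

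The smallest p of any member, with or without the block, belonged to Pdlim3, one of the genes that anchor filaments. This actinin-associated LIM protein read 12.51, 12.27 and 12.25 in DKO, against 12.18, 11.92 and 11.96 in ApoE-KO. Every DKO array lay above every ApoE-KO array, and the pairs agreed at 0.33, 0.35 and 0.29. The difference of 0.32 is 1.25-fold (95% interval 0.07 to 0.57; adjusted p = 0.861) and came nearest to the threshold with the block (95% interval 0.21 to 0.44; adjusted p = 0.057).

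Synpo2, an actin-bundling partner of filamin and actinin, read 12.51, 12.45 and 12.35 in DKO, against 12.35, 12.20 and 12.14 in ApoE-KO. Nexn, the F-actin binding protein nexilin, read 10.52, 9.90 and 9.97 in DKO, against 10.04, 9.66 and 9.74 in ApoE-KO. Fhl1, a LIM-only protein of muscle, read 12.95, 12.94 and 12.89 in DKO, against 12.81, 12.85 and 12.81 in ApoE-KO. Synpo2 and Fhl1 did not overlap between groups, Synpo2 by a margin of only 0.0003, Nexn did, and all 3 were higher in every pair. The differences were 0.21, 0.31 and 0.10, with adjusted p = 0.129, 0.125 and 0.335 with the block. That of Nexn was 0.12 without DKO replicate 1.

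Des, the muscle intermediate filament desmin, went the other way and is described after its values were seen. It read 10.39, 9.94 and 10.01 in DKO, against 10.52, 10.13 and 10.23 in ApoE-KO. Each pair was lower in DKO, by 0.13, 0.19 and 0.21, while replicate 1 stood high in both groups so that the groups overlapped. The difference of -0.18 (fold 0.884) had an adjusted p of 0.905, and 0.20 with the block. Desmin is made by striated muscle too. All 12 skeletal markers summed to 11.92, 11.67 and 12.01 in DKO, against 11.71, 11.39 and 12.08 in ApoE-KO (log2 of summed intensity). Without Casq1, which was higher in DKO, the other 11 summed to 11.03, 10.90 and 11.54 in DKO, against 10.97, 11.05 and 11.83 in ApoE-KO. Either sum was highest in replicate 3 of both groups. The part of skeletal muscle in the Des values was not tested.

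Vcl, the adhesion protein vinculin, was higher in each pair by 0.14, 0.17 and 0.18 (adjusted p = 0.187 with the block). Flna and Actn1, the actin crosslinkers filamin A and alpha-actinin, had differences of 0.07 and 0.03, Pdlim7 had 0.02, and Ldb3, a Z-disc protein, had -0.0027. Of the surface proteins, Itga8, the integrin alpha 8 chain of smooth muscle, read 13.34, 13.16 and 13.18 in DKO, against 13.19, 12.96 and 13.08 in ApoE-KO. Its groups overlapped and it differed by 0.15 (adjusted p = 0.197 with the block). Mcam, the cell adhesion molecule CD146, averaged 12.41 ± 0.20 in DKO and 12.29 ± 0.17 in ApoE-KO.

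Replicate number, more than genotype, ordered these genes. The replicate number took 75.0% of a member's variation over the 6 arrays in the median and genotype 17.6%, against 55.7% and 13.4% over all probe sets. Replicate number has 3 levels and genotype 2, so replicate number takes the larger share even of pure noise. In 23 of 34 members replicate 1 was the highest array in both groups (background 27.4%). It was the highest DKO array in 24 (background 42.6%) and the highest ApoE-KO array in 27 (background 42.4%), and ApoE-KO replicate 2 was the lowest of its group in 22 (background 27.5%). Array by array, 28 members lay above their 6-array mean in DKO replicate 1, 21 in DKO replicate 2 and 15 in DKO replicate 3, against 51.4%, 47.1% and 46.9% of all probe sets. The share in DKO replicate 3 was thus near its background. In ApoE-KO the counts were 26 in replicate 1, 4 in replicate 2 and 7 in replicate 3, against 55.4%, 51.0% and 43.5% of all probe sets. The median SD of a member was 0.105 within DKO and 0.134 within ApoE-KO, close to the 0.111 and 0.124 over all probe sets. Once replicate number and genotype were both taken out, the residual SD was 0.046 for the median member and 0.083 for the median probe set. Members and all probe sets were not matched for level in these comparisons of spread.

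**Figure D4:**
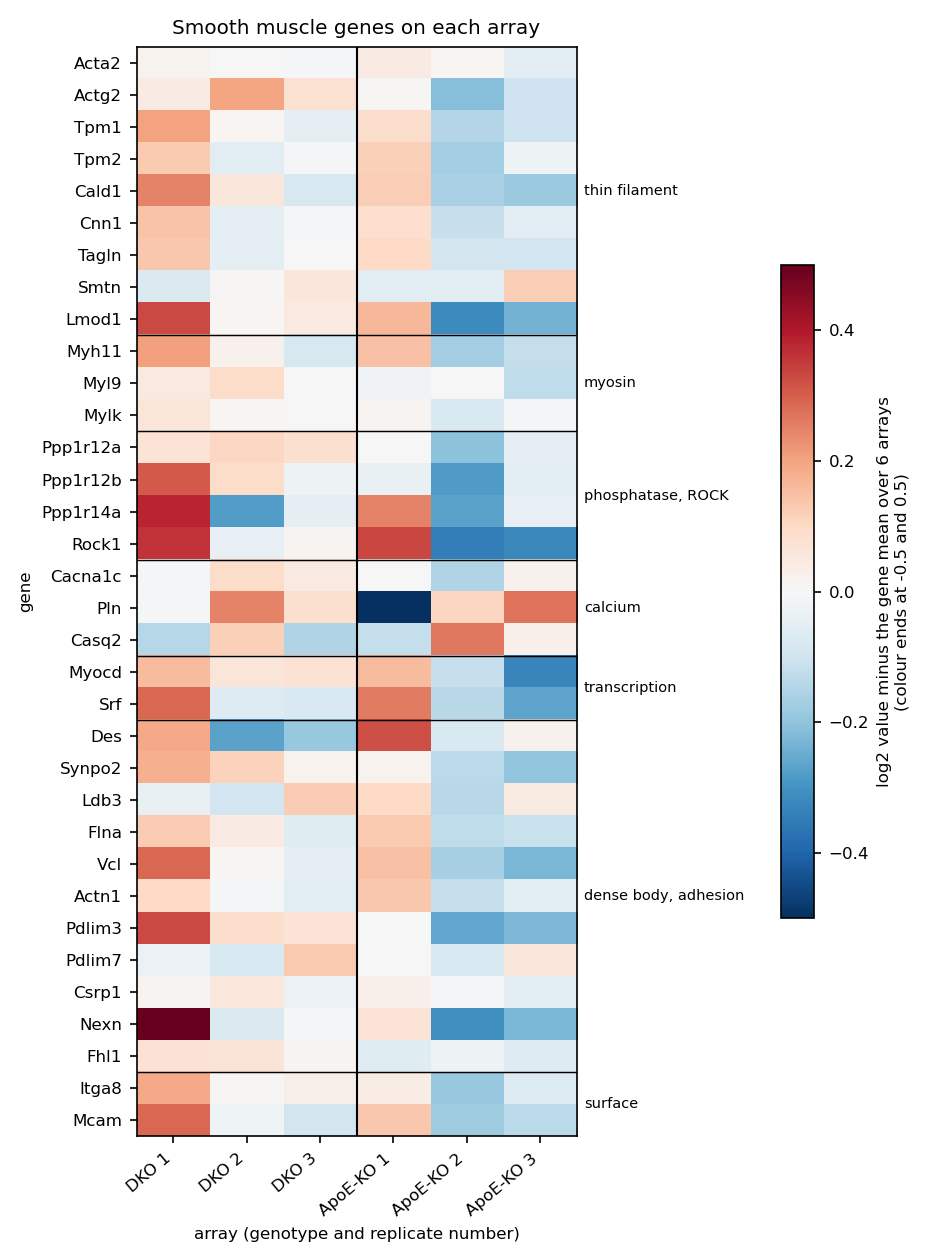
Colour gives each gene's log2 value on each array minus its mean over the 6 arrays, with genes grouped by role and DKO arrays left of ApoE-KO arrays. Replicate 1 is red for most genes in both groups, ApoE-KO replicates 2 and 3 are mostly blue, and Acta2 is nearly white throughout.

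Marker lists of other cell types also varied between these arrays, but did not all follow the same order. Over all probe sets, 49.3% were higher in DKO and 19.1% were lower in all 3 pairs. White adipocyte markers were lower in DKO in 6 of 7, 2 of them passing with the block, and summed to between 12.32 and 13.10 in DKO and between 12.96 and 13.56 in ApoE-KO (log2 of summed intensity). Within each group the sum was lowest in replicate 1 and highest in replicate 2, where contractile genes tended to be high in replicate 1 and, in ApoE-KO, low in replicate 2. Macrophage markers, 5 of 9 higher in DKO, summed to between 12.59 and 13.79 in DKO, lowest in replicate 1, and between 13.29 and 13.41 in ApoE-KO. Markers of endothelium summed to 13.80 in DKO replicate 1 and 13.72 in ApoE-KO replicate 1, below the 14.13 to 14.18 of the other arrays in both groups, and 7 of 10 were higher in DKO. Adventitial fibroblast markers, 4 of 9 higher, summed to between 15.30 and 15.58 in DKO and between 15.34 and 15.60 in ApoE-KO. Pericyte markers, 4 of 7 higher, summed to 14.41, 14.38 and 14.27 in DKO and 14.42, 14.31 and 14.19 in ApoE-KO. Their sum was thus highest in replicate 1 of both groups, where contractile genes also tended to be high. Whether these markers came from pericytes or from the smooth muscle cells themselves was not tested. Mesothelial markers were higher in DKO in 8 of 8, 2 of them passing with the block. They summed to 11.18, 11.68 and 11.37 in DKO, against 10.59, 10.61 and 10.98 in ApoE-KO. Lymphatic endothelial markers were lower in 6 of 6 and in every pair, with Lyve1 passing with the block (adjusted p = 0.0309), and summed to between 11.33 and 11.78 in DKO and between 11.85 and 12.31 in ApoE-KO. Nerve markers were lower in 6 of 7, none passing, and summed to between 9.74 and 9.92 in DKO and between 9.87 and 10.77 in ApoE-KO. An unmoderated linear model with the same block called none of these markers. No marker of these lists had a log2 value of 0. The part of these tissues in the smooth muscle differences was not tested.

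**Figure D5:**
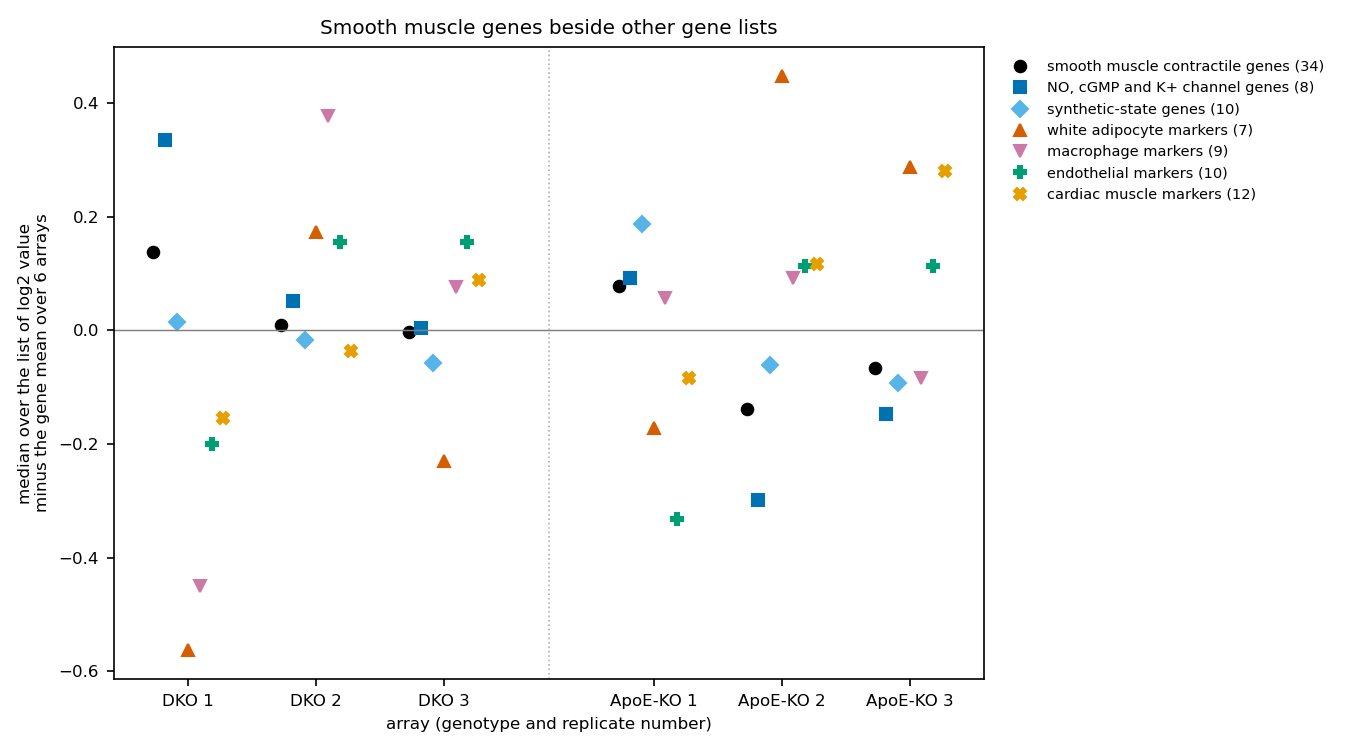
Median over each gene list of the log2 value minus the gene's 6-array mean, by array; each symbol is 1 list, with its number of measured genes. Contractile genes (black) stand at 0.14 in DKO replicate 1 and -0.14 in ApoE-KO replicate 2, where white adipocyte markers stand at -0.56 and 0.45.

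Of 94 other genes of smooth muscle control, 86 were measured. Of these, 59 were higher in DKO (background 49.3%), with a median of 0.051 against -0.0024 over all probe sets. None passed in limma without the block or with it; at an unadjusted p under 0.05 with the block, 26 were higher (background 10.1%) and 3 lower (background 6.1%). The 3 were Thbs1 at -0.52 (but 0.02 in pair 3), Arhgap42 at -0.37 and Dapk3, a kinase of the myosin light chain, at -0.16 (limma with the block, adjusted p = 0.250, 0.109 and 0.274). The list of nitric oxide, cGMP and potassium channel genes that set smooth muscle tone had the highest median, 0.210. In this list 8 of 8 were higher in DKO and in every pair (background 21.2%), among them Pde5a (0.14), which breaks down cGMP. Gucy1a1, the alpha subunit of the nitric oxide receptor guanylate cyclase, read 11.09, 10.99 and 10.75 in DKO, against 10.73, 10.36 and 10.36 in ApoE-KO. Gucy1b1, its beta subunit, read 10.86, 10.58 and 10.50 in DKO, against 10.40, 10.13 and 10.29 in ApoE-KO. Neither subunit overlapped between the groups, and the differences were 0.46 and 0.37 (adjusted p = 0.861 each, with the block 0.0628 and 0.0869).

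Focal adhesion and dystrophin complex genes were higher in 23 of 28 (background 49.3%), with a median of 0.098. Among them Cav1, the caveolar coat protein caveolin, and Sorbs2, an adhesion adaptor, were both higher by 0.25. The SRF cofactor and transcription factor list was split, with 8 of 13 higher, among them Hey2, a Notch target of arteries (0.33), and Gata6, a factor of vascular smooth muscle (0.16). Calcium store and entry genes were higher in 5 of 12 and lower in 7, with a median of -0.024. The reticulum pump gene Atp2a2 stood at 0.17 and the release channel gene Ryr2 at 0.16, while Itpr2 had the lowest difference, -0.13. Of 10 genes linked to the synthetic state, 6 were lower in DKO and 4 higher. This count, like the 8 of 13 and 5 of 12 before it, lay near the background. Thbs1, the matrix protein thrombospondin, averaged 10.50 ± 0.26 in DKO and 11.02 ± 0.32 in ApoE-KO (SD, n = 3 each). Its pairs stood at -1.12, -0.45 and 0.02, so pair 3 held no fall. Myh10, a nonmuscle myosin, averaged 11.89 ± 0.26 in DKO and 11.60 ± 0.31 in ApoE-KO. With the block, none of the genes named from these lists passed (adjusted p from 0.10 for Cav1 to 0.409 for Ryr2).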

How the data were processed

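Per the submitters' processing notes, the deposited log2 intensities come from RMA and Partek, without versions, with mouse build mm9. Per the labels, total RNA went through the Ambion WT Expression Kit and a biotin label. Arrays correlated at 0.983 to 0.995, so none was a copy of another.

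Members and lists were chosen with earlier results of these data known. Probe sets were named by the platform annotation, with 21415 of 21496 single-gene Entrez identifiers found in RefSeq (GRCm38.p6). limma 3.58.1 in R 4.3.3 (lmFit, eBayes with trend) was fitted to all 25254 probe sets, DKO minus ApoE-KO, without a filter, and two-sided p-values were adjusted by Benjamini-Hochberg at 0.05. Intervals are 95%. The fit was tested on simulated data whose changes were larger than any member difference. That test did not cover differences of the size reported here. The series text mentions an ANOVA with an array batch as second factor, and no label names that batch. Deviations of same-numbered arrays from their group means correlated at 0.60, 0.50 and 0.64, so the numbers were taken as pairs, from the data alone, and fitted as a block. The series text gives 3 mice per genotype, but no label ties an array to an animal, so p-values measure the spread between these samples. The 3 arrays per group limit the precision. Values on every array are given for the 12 members of smallest p, 6 core genes, the 3 widest ranges and neighbours of Adora1; Des was added after its values were seen. From each pathway list up to 2 genes of smallest p are named; 1 list is counted in the total but not reported here. Alternatives were the block, other eBayes priors, a 40th-percentile filter, renewed quantile normalization, median centring, an unmoderated model with the block, the second probe set per gene, and arrays or pairs left out.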

Additional observations from a re-analysis of the deposited data

How the results depend on the processing

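No member passed in any of the alternatives run. The whole table gave 0 calls in limma without the block (1419 at an unadjusted p under 0.05), 44 with the replicate block, 0 with an unmoderated model with that block, 48 with it but without both replicate 3 arrays, 415 without both replicate 1 arrays (chosen after seeing the data), and 0 to 8 with 1 array left out, the 8 being without DKO replicate 3. The block changed no call among the members or pathway genes. Of the pathway genes 1, Gucy1a1, passed without both replicate 1 arrays (0.51, adjusted p = 0.0262). The number of members higher in DKO ran from 26 to 31 and their median from 0.035 to 0.165 with 1 array left out, where pairs are broken. Of 34 members, 24 kept their direction in every setting and 10 did not. Casq2 was removed by the percentile filter and so was not tested in that setting. Under renewed quantile normalization Acta2 was -0.0082, Pdlim7 -0.0167 and Ppp1r14a -0.0093. Without both replicate 3 arrays Acta2 was -0.0169, Pdlim7 -0.0134 and Smtn 0.0221, and without both replicate 1 arrays Ldb3 was 0.0639, Pln -0.0251 and Ppp1r14a -0.0070. The second probe set of Ppp1r12b gave -0.131. With 1 array left out, differences ran from -0.0230 to 0.0236 for Acta2, -0.0267 to 0.0986 for Actn1, -0.0723 to 0.0457 for Ldb3, -0.0453 to 0.0588 for Pdlim7, -0.0816 to 0.405 for Pln, -0.141 to 0.190 for Ppp1r14a, -0.0372 to 0.0529 for Smtn, -0.0231 to 0.249 for Srf and -0.0226 to 0.121 for Tpm2. The cause of these shifts was not tested.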
